A study of Mus musculus with 13 samples.

Results

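Keratins are the intermediate filament proteins of epithelial cells, and 51 keratin genes were described here, out of 22517 gene symbols to which the authors' annotation assigned a peak in any of 8 peak lists. A gene was included when its symbol was Krt followed by digits alone, so Krt6a, Krt6b, Krt33a and Krt33b, whose symbols end in a letter, were left out. Of the 51 genes, 25 lie on chromosome 11 and 26 on chromosome 15. A gene was called marked by an antibody when the peak lists of both replicates held a peak assigned to it at no more than 2 kb from its start.

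A keratin filament is built from pairs of an acidic type I and a basic type II keratin, and each epithelium uses its own pairs. Krt5 and Krt14 pair in the basal layer of stratified epithelia, Krt8 and Krt18 pair in simple epithelia, and the hair keratins harden the shaft of the hair. In the olfactory epithelium, Krt5 and Krt14 are known from horizontal basal cells, the reserve stem cells that lie on the basement membrane, while Krt8 and Krt18 are known from sustentacular cells, which support the neurons. Type I genes lie together on mouse chromosome 11 and type II genes on chromosome 15, where Krt18, a type I gene, lies beside its partner Krt8.

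Chromatin immunoprecipitation with sequencing was done on cultured olfactory basal cells of wild-type C57BL6 mice, which had been sorted from the adult tissue by c-KIT and grown attached to gelatin in NeuroCult medium with EGF, FGF2, heparin, BMP4 and SB431542. The antibodies were against RING1B and CBX8, subunits of Polycomb repressive complex 1, and against H3K27me3 and H3K27ac, the repressive and the activating modification of the same histone residue, with 2 libraries each. Line 1 at passage 12 gave the first H3K27me3 and the first RING1B library; line 2 gave the second H3K27me3 library at passage 11, the second RING1B and first CBX8 libraries at passage 19 and the first H3K27ac library at passage 13; line 3 at passage 14 gave the second CBX8 and second H3K27ac libraries. Replicate numbers therefore do not mark a shared culture, line and replicate cannot be told apart, and 5 input libraries have no peak list of their own here. No test was possible with 2 libraries per antibody and no read counts, so spread is given as both values, and the numbers below are descriptions.

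The lists differed in length. RING1B had 7578 peaks in replicate 1 and 32918 in replicate 2, CBX8 had 9926 and 77417, H3K27me3 had 68898 and 101129, and H3K27ac had 123155 and 112175. H3K27ac marked 55.6% of all symbols, and it marked all 5 horizontal basal markers examined (Krt5, Krt14, Trp63, Icam1 and Itgb4), of which Icam1 was also marked by H3K27me3 and CBX8. Of 7 globose basal and progenitor markers 4 (57.1%) were, while Kit, the receptor used for the sort, was marked by H3K27me3 and RING1B. Of 7 sustentacular and gland markers only Krt8 and Krt18 were marked by H3K27ac. Of 5 mature neuron markers 2 were (Omp and Adcy3). Of 5 mesenchyme and blood markers 2 were, Col1a1 with folds of 5.12 and 4.17 and Pdgfra with 3.40 and 2.43, both of which also carried H3K27me3; Col1a2 had a H3K27ac peak of 3.06 in replicate 1 alone, and Ptprc and Cd68 had none within 2 kb.

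Promoter sequences are shown for the basal and simple keratins and for the marked hair keratins that the sequence table holds, because the results turn on how these genes differ. They come from RefSeq (GRCm38.p6) and span 250 bases before to 50 bases after the start, 5′ to 3′ along the gene. Capitals mark CpG dinucleotides and the letters TATAAA on either strand. Krt5 is on the minus strand at chr15:101712856-101713155, Krt8 on the minus strand at chr15:102004293-102004592, Krt18 on the plus strand at chr15:102027966-102028265, Krt32 on the minus strand at chr11:100088220-100088519 and Krt82 on the minus strand at chr15:101550610-101550909.
Krt5: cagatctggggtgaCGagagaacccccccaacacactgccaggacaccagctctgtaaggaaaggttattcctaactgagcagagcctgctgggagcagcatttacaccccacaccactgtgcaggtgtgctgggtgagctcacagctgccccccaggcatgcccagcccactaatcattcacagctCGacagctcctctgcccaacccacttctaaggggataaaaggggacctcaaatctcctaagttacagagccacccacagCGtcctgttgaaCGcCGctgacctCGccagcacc
Krt8: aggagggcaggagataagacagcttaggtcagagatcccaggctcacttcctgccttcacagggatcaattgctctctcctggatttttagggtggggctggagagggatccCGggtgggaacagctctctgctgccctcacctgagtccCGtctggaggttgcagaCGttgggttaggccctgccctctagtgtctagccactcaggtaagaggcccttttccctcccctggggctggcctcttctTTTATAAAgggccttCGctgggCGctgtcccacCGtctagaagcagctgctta
Krt18: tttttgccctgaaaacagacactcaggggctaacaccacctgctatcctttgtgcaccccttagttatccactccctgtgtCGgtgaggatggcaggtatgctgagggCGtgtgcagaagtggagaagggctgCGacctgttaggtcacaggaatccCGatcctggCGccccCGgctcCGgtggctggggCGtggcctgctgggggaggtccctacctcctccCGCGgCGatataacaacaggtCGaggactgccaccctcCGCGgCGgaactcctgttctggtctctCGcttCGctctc
Krt32: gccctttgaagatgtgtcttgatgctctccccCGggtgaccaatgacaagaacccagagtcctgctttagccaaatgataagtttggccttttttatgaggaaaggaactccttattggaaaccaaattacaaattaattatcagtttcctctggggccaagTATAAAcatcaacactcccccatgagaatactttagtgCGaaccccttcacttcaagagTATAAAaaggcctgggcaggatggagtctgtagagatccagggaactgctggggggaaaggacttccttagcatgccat
Krt82: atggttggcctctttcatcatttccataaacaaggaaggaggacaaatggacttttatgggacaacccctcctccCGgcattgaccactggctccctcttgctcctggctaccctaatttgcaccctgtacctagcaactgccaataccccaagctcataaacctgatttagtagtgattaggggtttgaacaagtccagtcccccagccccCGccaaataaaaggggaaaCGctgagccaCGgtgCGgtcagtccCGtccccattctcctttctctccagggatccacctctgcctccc
The Krt18 window held 17 CpG, against 6 in each of Krt5, Krt8 and Krt82 and 2 in Krt32. The only window listed for Krt14 starts 1480 bp inside the gene and is not printed. Krt81, Krt83, Krt86 and Krt87 have no entry.

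With a peak required in both replicates, the keratin family divided between the opposing histone marks, and none of its members was marked by Polycomb repressive complex 1. H3K27ac marked 18 of 51 keratins (35.3%), against 55.6% of all gene symbols. H3K27me3 also marked 18 of 51 (35.3%), against 20.7% of all symbols. Krt42 alone carried both marks, which left 17 keratins with H3K27me3 and no H3K27ac (33.3%, against 14.3% of all symbols). This division depended on the rule for both replicates. In pairs of single libraries both marks met at 7 or 9 of 51 keratins (13.7% and 17.6%), against 12.2% to 13.4% of all symbols. RING1B marked 0 of 51, against 12.8% of all symbols, CBX8 marked 0 of 51, against 6.28%, and 0 of 51 carried both, against 4.25%. The remaining 16 keratins (31.4%) had no mark, against 28.8% of all symbols. Some of these lacked a mark only because a peak is assigned to 1 gene. When each gene start was tested against every peak, 12 (23.5%) had none, against 23.4% of all symbols. Krt10, Krt77, Krt85 and Krt90 then gained H3K27me3. In single libraries, a H3K27ac peak lay within 2 kb of 22 and 24 keratins (43.1% and 47.1%, against 59.8% and 61% of all symbols) and a H3K27me3 peak within 2 kb of 24 and 31 (47.1% and 60.8%, against 26.9% and 30.3%). H3K27ac was thus below and H3K27me3 above the background in each library with the peaks as listed. The H3K27me3 result turned with a stricter minimum of 3 for the −log10 q-value in both lists, under which 0 of 51 keratins were marked, against 6.23% of all symbols.

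**Figure D1:**
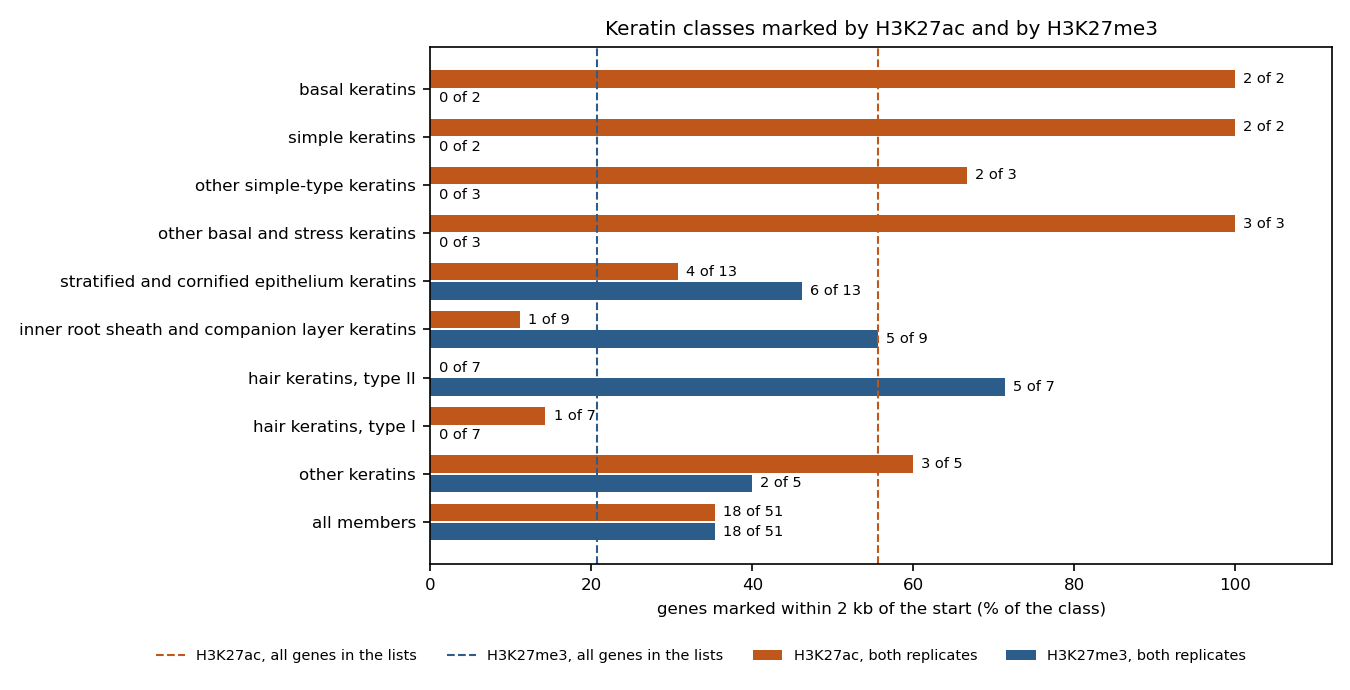
Percentage of the genes in each keratin class that were marked by H3K27ac (orange) or H3K27me3 (blue) in both replicates; the dashed lines give the percentage among all 22517 symbols, 55.6% and 20.7%. The bars of basal, simple and stress keratins are orange alone, while the type II hair keratins have 5 of 7 genes under H3K27me3 and 0 of 7 under H3K27ac; with the stricter minimum no blue bar would remain.

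Values below are fold enrichments, the authors' own value for the strongest peak within 2 kb of the start, and they were used to describe peaks within a list. Both basal keratins were marked by H3K27ac. Krt5 had a fold of 11.4 in replicate 1 and 10.5 in replicate 2 (10.9 ± 0.64, SD, n = 2), in peaks of 4101 and 5355 bp. Its type I partner Krt14, on the other chromosome, had 9.61 and 8.0 (8.81 ± 1.14, SD, n = 2), in peaks that covered the start in both libraries. The basal pair therefore lay in the upper and middle part of the genes with a nearby H3K27ac peak: Krt5 at the 69.6 and 62.9 percentile of its lists and Krt14 at the 56.6 and 44 percentile.

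Krt14 had no peak of H3K27me3, RING1B or CBX8 within 2 kb in any library. Krt5 had an H3K27me3 peak of fold 2.84 at 1145 bp downstream of the start in replicate 1 alone, and a RING1B peak of 4.51 at 1490 bp before the start in replicate 2 alone. Neither met the rule that both replicates hold a peak, and Krt5 had no CBX8 peak within 2 kb.

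Both simple keratins were marked by H3K27ac too, with the highest value of the family at Krt18. Krt18 had folds of 13.0 and 13.8 (13.4 ± 0.60, SD, n = 2), at the 79.4 and 83.1 percentile of the genes with a nearby peak. Krt8 had 11.4 and 11.5 (11.4 ± 0.07, SD, n = 2), at the 69.5 and 70.0 percentile. All 4 basal and simple keratins lay above the median fold of marked keratins, which was 4.14 in replicate 1 and 5.91 in replicate 2. In both libraries Krt18 and Krt8 stood above Krt14, and Krt8 and Krt5 were nearly equal in replicate 1.

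The simple pair differed from the basal pair in the width of the acetylated region. The peak over the Krt18 start was 15.7 kb wide in replicate 1 and 19.0 kb in replicate 2. The peak over the Krt8 start was 14.96 and 15.16 kb wide and also covered the 5′ end of the RefSeq extent of Krt78, which lies next to Krt8. A further Krt8 peak, 5701 and 5696 bp before its start, had folds of 12.1 and 13.7 and a width of 10.02 and 10.44 kb. Across all H3K27ac-marked genes the median width was 1921 and 1893 bp, so the peaks of the simple pair were wider than those of most marked genes, and the Krt5 peaks also exceeded that median. RING1B replicate 2 listed a fold of 5.64 at Krt8 and 5.66 at Krt18, at 1081 and 1563 bp downstream of their starts, where replicate 1 listed none. Neither simple keratin had a H3K27me3 or CBX8 peak within 2 kb.

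**Figure D2:**
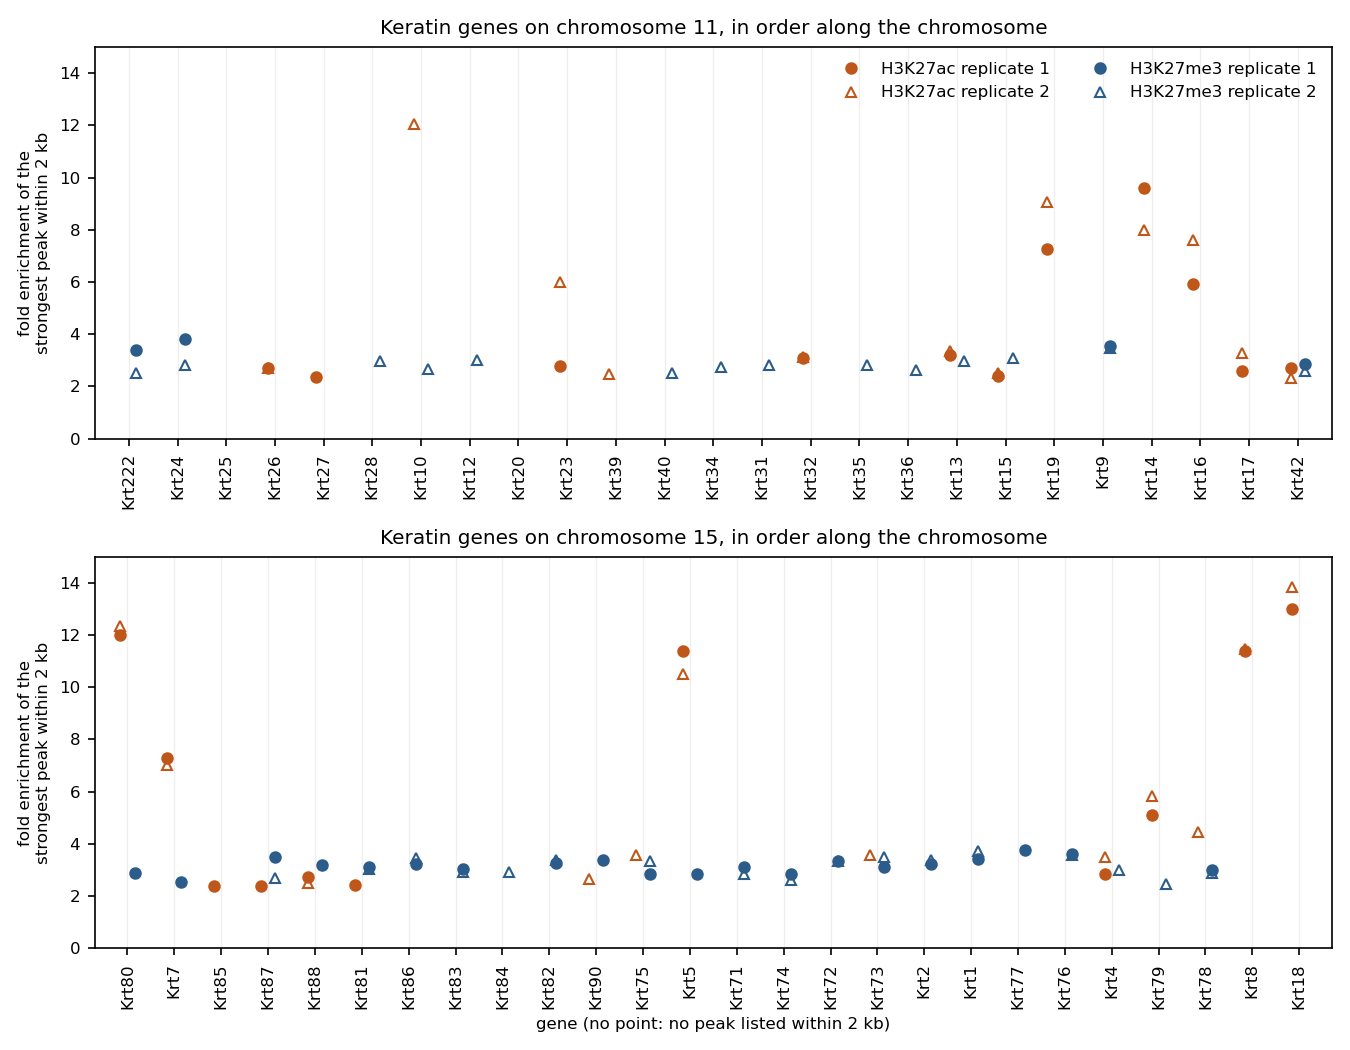
Fold enrichment of the strongest H3K27ac (orange) and H3K27me3 (blue) peak within 2 kb of each keratin gene, with genes in chromosome order and filled circles and open triangles for replicates 1 and 2. Krt5, Krt8, Krt18, Krt80 and Krt14 stand at 8.0 or more in H3K27ac in both replicates, while every H3K27me3 point lies between 2.46 and 3.83.

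The other basal and stress keratins were likewise acetylated, with lower folds. Krt16, which is induced with Krt17 in wounded epidermis, had folds of 5.90 and 7.62. Krt17 had 2.61 and 3.27, and Krt15, a keratin of basal cells, had 2.39 and 2.51. All 3 were below Krt5 and Krt14 in both libraries. Of the further simple-type keratins, Krt7 had 7.27 and 7.01 in peaks of 19.3 and 19.7 kb, and Krt19, a keratin of simple and progenitor epithelia, had 7.26 and 9.07. Krt20, known from intestinal epithelium, had no mark.

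Among 13 keratins of stratified and cornified epithelia, 6 were marked by H3K27me3 (46.2%, against 35.3% of all keratins and 20.7% of all symbols). None of these 6 was marked under the stricter minimum. H3K27ac marked 4 of the 13 (30.8%, against 35.3% of all keratins and 55.6% of all symbols). Krt80 was the strongest, with folds of 12.0 and 12.4 at its start. A peak 21523 and 21142 bp downstream had 21.5 and 21.0, the highest H3K27ac values of any peak assigned to a keratin. It ended at 101343055 and 101343436, beyond the 3′ end of Krt80 at 101348315. It is thus tied to Krt80 only by the authors' assignment. Krt79 had 5.09 and 5.82. Krt13 and Krt4, which pair in the wet mucosa of mouth and oesophagus, had 3.20 and 3.34 and 2.86 and 3.50. Krt10, which pairs with Krt1 in the layers above the basal cells of the epidermis, had H3K27ac folds of 10.02 and 12.1, but the peak lay 2502 bp from the start in replicate 1 and 1753 bp in replicate 2, so Krt10 counted as unmarked.

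The keratins of stratified and cornified epithelia marked by H3K27me3 were Krt1, Krt2, Krt9, Krt24, Krt76 and Krt78. Krt1, the type II partner of Krt10, had H3K27me3 folds of 3.42 and 3.72. Krt76, a keratin of the palate, had 3.61 and 3.57, and Krt9, which is restricted to the skin of palms and soles, had 3.54 and 3.47. Krt2 had 3.25 and 3.38, Krt24 had 3.83 and 2.80, and Krt78 had 2.99 and 2.87. The values of Krt24 differed the most between replicates among these genes, while those of Krt76 and Krt9 were nearly equal. Krt78 also had a H3K27ac peak of 4.47 in replicate 2 alone. Krt77 counted as unmarked, with H3K27me3 at 3.77 in replicate 1, while the replicate 2 peak over its start was assigned to Krt1.

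Under the rule for both replicates, the keratins of the inner root sheath and companion layer, which wrap the growing hair, followed their chromosome. The 5 type II genes on chromosome 15 were all marked by H3K27me3: Krt71 had folds of 3.13 and 2.84, Krt72 had 3.34 and 3.33, Krt73 had 3.10 and 3.51, Krt74 had 2.83 and 2.63, and Krt75 had 2.84 and 3.34. Krt74 is listed by RefSeq as a transcribed pseudogene in the mouse. Of the 4 type I genes on chromosome 11, Krt25, Krt27 and Krt28 had no mark and Krt26 was marked by H3K27ac at 2.70 and 2.72. Single libraries were less clearly split. H3K27ac peaks lay at Krt73 (3.58) and Krt75 (3.56) in replicate 2 alone, above the Krt26 folds, and at Krt27 (2.38) in replicate 1 alone. A H3K27me3 peak lay at Krt28 (2.98) in replicate 2 alone.

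The hair keratins differed from the basal and simple pairs in both marks. H3K27ac marked 1 of 14 against 4 of 4, and H3K27me3 marked 5 of 14 against 0 of 4. The hair share with H3K27ac was 7.14%, against 45.9% of the 37 other keratins and 55.6% of all symbols. The hair share with H3K27me3 was 35.7%, close to the 35.1% of the 37 other keratins, against 20.7% of all symbols. Under the stricter minimum no keratin was marked by H3K27me3. Any mark was present at 6 of 14 hair keratins (42.9%), against 71.2% of all symbols. The 7 type II hair keratins, which lie on chromosome 15, gave all 5 of the H3K27me3 calls. Krt86 had folds of 3.24 and 3.46, Krt82 had 3.26 and 3.38, Krt81 had 3.12 and 3.06, Krt83 had 3.02 and 2.93, and Krt87 had 3.50 and 2.68. None of these 7 genes was marked by H3K27ac, although replicate 1 listed weak peaks at Krt81, Krt85 and Krt87 of 2.43, 2.39 and 2.39.

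Krt84, a type II keratin of the tongue, had a H3K27me3 fold of 2.91 in replicate 2, while replicate 1 listed none. The authors' annotation starts Krt85 at the same position as Krt83, with a transcript that spans 101431014 to 101491512 on chromosome 15, so peaks at this start cannot be told apart between these genes and the lack of a mark at Krt85 has no meaning of its own. The Krt83 peak in H3K27me3 replicate 2 was 11.9 kb wide and covered that shared start.

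Type I hair keratins on chromosome 11 differed between the H3K27me3 libraries. Replicate 1, from line 1, listed no H3K27me3 peak within 2 kb of any of the 7. Replicate 2, from line 2, listed peaks at 5 of 7: Krt35 at 2.83, Krt31 at 2.81, Krt34 at 2.73, Krt36 at 2.62 and Krt40 at 2.51. All 5 lay below the median fold of 3.04 over genes with a nearby peak in that list. Of the other two, Krt39 had a H3K27ac peak of 2.47 in replicate 2 alone. Krt32 was the only hair keratin with H3K27ac in both replicates, at 3.09 and 3.13, in peaks 1170 and 1166 bp before its start, and replicate 1 had a further peak that covered all 300 bases of the window printed above, where replicate 2 covered 0. Krt31 had stronger H3K27ac further away, with folds of 9.51 and 9.43 at 5411 and 5188 bp before its start, between Krt31 and Krt32.

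The keratins that fit no class above were Krt23, Krt42, Krt88, Krt90 and Krt222. Krt23 had H3K27ac folds of 2.78 and 6.0, the largest relative difference between replicates of any marked keratin (2.16-fold), and Krt88 had 2.75 and 2.52. Krt222 had H3K27me3 folds of 3.40 and 2.52. Krt90 counted as unmarked, with H3K27me3 at 3.36 in replicate 1 alone and H3K27ac at 2.65 in replicate 2 alone. The H3K27me3 peak over its start in replicate 2 was assigned to Krt82. Krt42, the gene with both marks, had narrow and weak peaks, with H3K27ac at 2.70 and 2.32 and H3K27me3 at 2.88 and 2.58. Its H3K27ac peaks lay 1192 bp before the start in replicate 1 and 1799 bp downstream of it in replicate 2, and its H3K27me3 peaks 1409 bp before and 362 bp downstream. Neither pair overlapped, so Krt42 lost both marks when the peaks of the replicates had to overlap. In single libraries H3K27ac and H3K27me3 met at 7 or 9 of 51 keratins, depending on the pair of libraries (13.7% and 17.6%, against 12.2% to 13.4% of all symbols).

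Strength separated the marks further. The 18 H3K27ac-marked keratins had a median fold of 4.14 and 5.91, below the 9.21 and 9.32 of all H3K27ac-marked genes. The 18 H3K27me3-marked keratins had a median of 3.24 and 3.19, close to the 3.38 and 3.27 of all H3K27me3-marked genes, with a range from 2.83 to 3.83 in replicate 1 and from 2.52 to 3.72 in replicate 2. Their −log10 q-values ran from 1.22 to 2.90 and from 1.41 to 4.37, and no keratin reached the stricter minimum of 3 in both lists. For H3K27ac, 11 of 51 keratins reached it, against 50.3% of all symbols. Krt5, Krt14, Krt8 and Krt18 were among those 11. Between replicates, the median ratio of the second fold to the first was 1.04 for H3K27ac and 0.980 for H3K27me3 over the marked keratins.

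The Polycomb subunits were examined in each library, because the replicate lists differ in length. RING1B replicate 1 assigned none of its 7578 peaks to a keratin, while 13.7% of all symbols had a peak within 2 kb in that list. RING1B replicate 2 had such a peak at 9 of 51 keratins (17.6%), against 44.5% of all symbols. These were Krt7 at 6.62, Krt18 at 5.66, Krt8 at 5.64, Krt16 at 5.47, Krt19 at 4.70, Krt5 at 4.51, Krt86 at 4.49, and Krt13 and Krt28 at 4.21. Of these 9 genes, 7 were marked by H3K27ac and Krt86 by H3K27me3. CBX8 replicate 1 had a peak near Krt25 alone, with a fold of 4.94, against 8.11% of all symbols. CBX8 replicate 2 had peaks near 15 of 51 (29.4%), against 27.4% of all symbols, the strongest at Krt34 with 6.62.

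Ranked by the lower of both replicates at any distance from the start, CBX8 folds were highest at Krt1 (7.42 and 5.58), Krt10 (6.43 and 5.09) and Krt25 (4.94 and 5.58). For Krt1 the peaks lay 4642 bp downstream of the start in replicate 1 and 8637 bp before it in replicate 2, so they were different peaks, and so were those of Krt25, at 53 and 5075 bp downstream. For Krt10 they lay 4938 and 4962 bp before the start, at nearly the same place.

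The 2 clusters were also compared by the share of their bases under peaks, since a wide peak is assigned to 1 gene only. The chromosome 15 cluster, 684 kb from Krt80 to Krt18, was covered by H3K27ac over 22.0% and 21.3% of its bases, against 8.18% and 7.06% of the whole chromosome. H3K27me3 covered 14.1% and 40.9% of it, against 3.87% and 8.88%. Both marks were therefore denser in the chromosome 15 cluster than along the chromosome in each library with the peaks as listed. With stricter peaks this turned for H3K27me3 replicate 1, which covered 0.187% of the cluster against 0.712% of the chromosome, and not for replicate 2, with 20.9% against 3.65%. The chromosome 11 cluster, 1037 kb from Krt222 to Krt42, had H3K27ac over 8.60% and 12.6%, against 11.4% and 10.2%, and H3K27me3 over 1.79% and 12.2%, against 5.47% and 12.5%, so it did not exceed its chromosome in H3K27me3 in either library. It includes 494 kb between Krt40 and Krt34 without any of the 51 genes, where H3K27ac covered 3.96% and 5.56% and H3K27me3 1.07% and 4.41%. Counted by gene, H3K27me3 marked 14 of 26 keratins on chromosome 15 and 4 of 25 on chromosome 11, against 20.7% of all symbols. In replicate 1 alone, a H3K27me3 peak lay within 2 kb of 20 of 26 and 4 of 25. In replicate 2 alone, the counts were 17 of 26 and 14 of 25, so the gap in gene counts came mainly from replicate 1. By bases covered, replicate 2 had a gap too, with 40.9% of the chromosome 15 cluster against 12.2% of the chromosome 11 cluster. H3K27ac marked 8 of 26 and 10 of 25, against 55.6% of all symbols.

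Within the clusters the marks lay in blocks, which were drawn from the gene order after the values were seen. The block from Krt71 to Krt76 holds type II keratins of the inner root sheath and of stratified and cornified epithelia. It had H3K27me3 over 33.8% and 76.4% of its bases and H3K27ac over 2.55% and 1.43%. In replicate 2 a peak of 41.2 kb ran across Krt1 and Krt77, and a peak of 18.2 kb lay over Krt76. The block from Krt87 to Krt75, with the type II hair keratins, had H3K27me3 over 22.7% and 56.0% and H3K27ac over 12.2% and 10.9%. There a peak of 24.0 kb in replicate 2 covered the starts of Krt82 and Krt90.

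Acetylated ends flanked these blocks. The block from Krt80 to Krt7 had H3K27ac over 65.9% and 59.4% and H3K27me3 over 1.94% and 1.69%. The block from Krt4 to Krt18 had H3K27ac over 47.1% and 51.0%, with H3K27me3 over 2.44% in replicate 1 and 25.1% in replicate 2. Krt5 lay between the H3K27me3 blocks, with the H3K27ac peaks described above. On chromosome 11, the block from Krt13 to Krt42, which holds Krt14, had H3K27ac over 19.7% and 27.2%. The type I hair block from Krt34 to Krt36 had H3K27me3 over 0.96% and 23.3%, against 5.47% and 12.5% of the chromosome. The block from Krt222 to Krt40 was similar, with 2.77% and 22.3%. In H3K27me3 both blocks were therefore below the chromosome in replicate 1 and above it in replicate 2. H3K27ac covered 11.6% and 12.6% of the block from Krt34 to Krt36, against 11.4% and 10.2% of the chromosome. It covered 8.40% and 15.8% of the block from Krt222 to Krt40. Coverage of single blocks was not computed with stricter peaks. RING1B replicate 1 covered none of the blocks. RING1B replicate 2 covered most in the block from Krt80 to Krt7, 3.22% against 0.545% of the chromosome, and CBX8 covered 0.381% and 1.72% of it, against 0.159% and 0.712%. In replicate 2 the whole chromosome 15 cluster also exceeded its chromosome, with 0.989% against 0.545% for RING1B and 1.31% against 0.712% for CBX8, although no gene in it met the rule for both replicates.

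**Figure D3:**
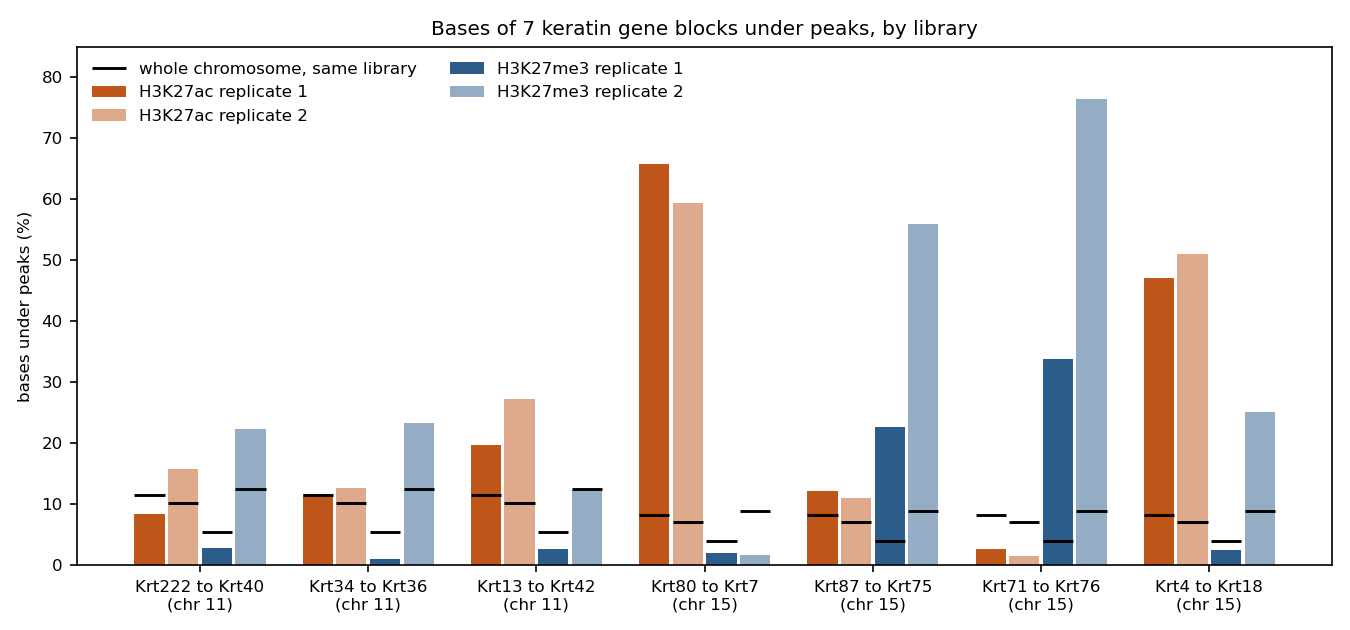
Percentage of bases under H3K27ac (orange) and H3K27me3 (blue) peaks in 7 blocks of keratin genes, dark bars for replicate 1 and light bars for replicate 2, with a black line for the whole chromosome in the same library. H3K27me3 reached 76.4% in the block from Krt71 to Krt76 in replicate 2 and 33.8% in replicate 1, and H3K27ac reached 65.9% in the block from Krt80 to Krt7.

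Keratin promoters also shared features of sequence that the choice of genes did not use. RefSeq promoter windows were found for 35 of 51 keratins, 36 windows in all because Krt13 has a pair, and 6 of them start over 500 bp inside the RefSeq extent of the gene (Krt2, Krt10, Krt13, Krt14, Krt36 and Krt78). The median keratin window held 5 CpG, against 7 over all 32817 windows, 19 over those of H3K27ac-marked genes, 10 over those of H3K27me3-marked genes and 22 over those of RING1B-marked genes. At least 10 CpG were present in 4 of 36 keratin windows (11.1%), against 43.4% of all and 79.9% of those of RING1B-marked genes. These were Krt7 with 21, Krt18 with 17, Krt72 with 11 and Krt28 with 10. Krt7, Krt18 and Krt28 were among the keratins with a RING1B peak within 2 kb in replicate 2, while Krt72 had none. In Krt7 that peak covered the whole window, and in Krt18 no RING1B peak reached the window. Keratins with fewer CpG also had such a peak in replicate 2, among them Krt5 and Krt8 with 6 each and Krt13 with 5 and 2.

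**Figure D4:**
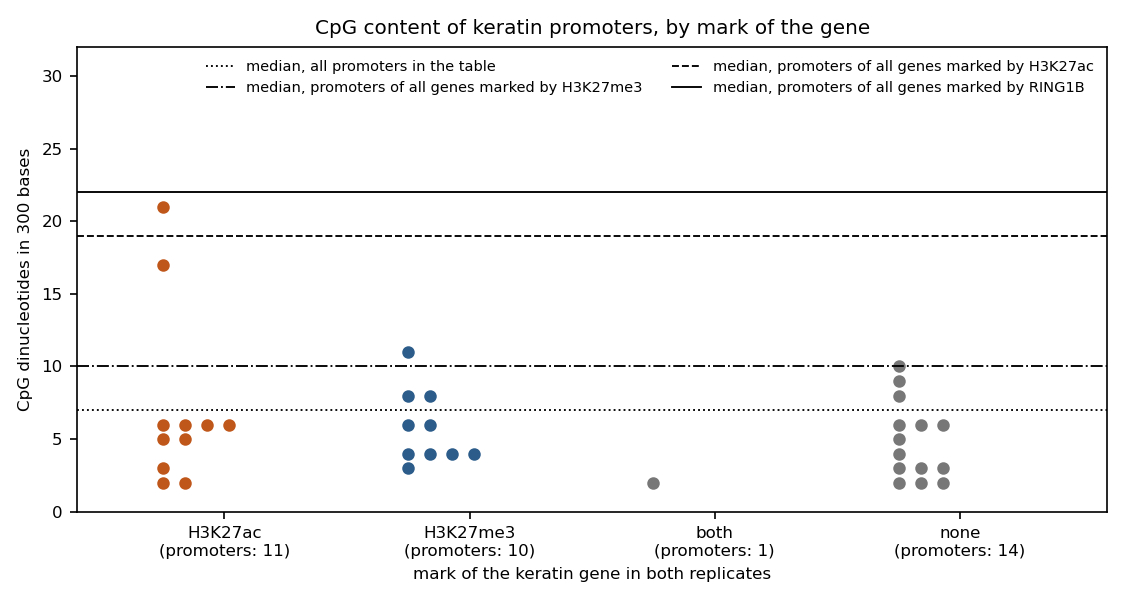
Number of CpG dinucleotides in the 300-base promoter window of each keratin, grouped by the mark of the gene, with lines for the medians over all promoters (7), H3K27me3-marked (10), H3K27ac-marked (19) and RING1B-marked genes (22). All keratin windows but those of Krt7, Krt18 and Krt72 lie at 10 CpG or fewer.

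Short motifs were searched on both strands of each window, and a match describes the letters alone and does not show a site. The TATA box letters TATAAA were present in 18 of 36 keratin windows, against 13.6% of all windows. The letters GGGCGG, as bound by Sp1, were present in 2 of 36 (5.56%), against 35.6%. The letters GCCNNNGGC, as bound by AP-2 factors, were present in 7 of 36 (19.4%), against 16.6%. The AP-1 letters TGANTCA were present in 2 of 36 (5.56%), against 7.81%, and the Lef and Tcf letters CTTTGA in 8 of 36 (22.2%), against 16.0%. GCCNNNGGC can share bases with GGGCGG. The keratin windows were thus richer in TATAAA and poorer in GGGCGG than windows in general. TATAAA occurred in 4 of 12 windows of H3K27ac-marked keratins, 5 of 11 of H3K27me3-marked keratins and 10 of 14 of keratins with neither, where Krt42 counts in both marked groups. Among 8 hair keratin windows, 5 held TATAAA and 4 held CTTTGA. Of the printed windows, Krt32 holds TATAAA at 2 places, Krt8 has overlapping matches on both strands, and Krt5, Krt18 and Krt82 hold none.

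For the choice of distance, the peaks nearest to 2 kb show how close the calls were. In H3K27ac the last peak inside lay at 1907 bp (Krt19, fold 3.95) in replicate 1 and 1799 bp (Krt42, 2.32) in replicate 2, and the first outside at 2348 bp (Krt85, 2.32) and 2002 bp (Krt39, 2.63). In H3K27me3 the last inside lay at 1961 bp (Krt76, 3.61) and 1871 bp (Krt13, 2.99), and the first outside at 2044 bp (Krt73, 3.67) and 2102 bp (Krt78, 2.76). When the 5′ end of each gene was tested against every peak, in place of the gene assigned by the authors, Krt78 gained H3K27ac and lost H3K27me3, and Krt10, Krt77, Krt85 and Krt90 gained H3K27me3.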

How the data were processed

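Peak lists of 8 ChIP libraries were used, with 2 per antibody; each was taken as the peaks of 1 library, and the 5 inputs have no list of their own here. The build was mm10, and the tools named per the submitters' processing notes are MACS2 2.1.1.20160309, BWA 0.7.12, Trim Galore 0.4.3 and bcl2fastq 2.17. No source used here gives their options, the controls or the handling of duplicate reads. Names of peaks in CBX8 replicate 2 and both H3K27ac lists include "combined", which no source explains. The deposited value per peak is the fold enrichment (a ratio) that the authors obtained over their control. The deposited −log10 q-value was used only for a stricter minimum of 3 and to describe H3K27me3 peaks. RING1B and CBX8 lists have the form of narrow peaks and the histone lists that of broad peaks, so their folds are on different scales. The lists hold no counts, so depth is unknown and no interval is given, and absence means that no peak was listed.

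Distances and genes are those of the authors' annotation. A gene was marked by an antibody when each replicate had a peak within 2 kb of its start; the background is the same count over all 22517 symbols. Of the 51 keratins, 50 matched a RefSeq gene (GRCm38.p6), and Krt85 was placed by the authors' transcript. Percentiles rank a gene's strongest nearby peak among all genes with a nearby peak in that list. Scripts used Python 3.11.15, pandas 2.3.3, numpy 2.4.6 and matplotlib 3.10.9 and were tested on simulated data. The genes and lists were chosen with earlier results of these data known. Named genes are the basal, simple and hair keratins, every other marked keratin, the 3 highest keratins per antibody, and of other lists the genes marked by RING1B or CBX8 and the 2 highest by each histone mark; Krt20, Krt25, Krt27, Krt28, Krt77, Krt90, Ptprc and Cd68 and single-library peaks were named after their values were seen. Alternatives were 1 kb and 5 kb, gene starts, stricter peaks, overlapping replicates (1 bp, or 50% of the shorter peak), cluster edges 50 kb further out, each replicate alone and, chosen after seeing the data, the libraries of line 2.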

Additional observations from a re-analysis of the deposited data

How the results depend on the processing

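No paired analysis was possible because the results come from no test and replicate numbers do not mark the same culture. With 1 kb, gene starts, or replicates overlapping by 1 bp or 50%, all 8 counts stayed within 1.5 times their value. Within 5 kb, CBX8 marked 2 keratins (Krt1 and Krt10; 8.18% of all symbols), 9 had no mark (22.7%) and 10 hair keratins had any mark (77.3%). With stricter peaks, H3K27ac marked 11 (50.3% of all symbols), H3K27me3 marked 0 (6.23%), H3K27me3 without H3K27ac marked 0 (5.4%), 40 had no mark (41.7%) and 1 hair keratin (Krt32) had any (58.3%), since peaks of both marks fell under the minimum. Using 1 replicate alone, the counts ran from 22 to 24 for H3K27ac, 24 to 31 for H3K27me3, 17 to 22 for H3K27me3 without H3K27ac, 0 to 9 for RING1B, 1 to 15 for CBX8, 0 to 4 for RING1B with CBX8, 3 to 11 for no mark and 7 to 13 for hair keratins with any mark; the higher H3K27me3, RING1B, CBX8 and hair values come without replicate 1, whose lists are shorter for these antibodies. With the libraries of line 2 alone, chosen after seeing the data, H3K27me3 marked 31 (30.3% of all symbols), RING1B 9 (44.5%) and CBX8 1 (8.11%), 4 had no mark (18.5%) and 13 hair keratins had any (81.5%). Coverage of the chromosome 15 cluster by H3K27ac was 19.7% and 19.0% with stricter peaks and 25.8% and 24.5% with edges 50 kb further out. In H3K27me3 replicate 2 stricter peaks covered 20.9% of the chromosome 15 cluster and 1.52% of the chromosome 11 cluster, against 3.65% and 4.41% of the chromosomes. In replicate 1 they covered 0.187% and 0.063%, against 0.712% and 1.07%, so the excess over chromosome 15 was lost there. Apart from the stricter peaks, the cause of these differences was not tested. The shorter RING1B and CBX8 lists limit what a count of 0 shows.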

Other observations

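Genes that work with keratins were marked by H3K27ac at 56.2% to 69.2% of each list, against 35.3% of keratins and 55.6% of all symbols. H3K27ac marked 9 of 16 desmosome genes, which anchor keratin filaments at cell contacts, with the highest folds at Pkp4 (15.3 and 17.2) and Dsp (15.1 and 15.1). H3K27me3 marked Dsc3 alone of these 16 genes, RING1B marked Dsg2 (6.61 and 8.12) and CBX8 marked Pkp3 (5.93 and 5.15). Of 6 hemidesmosome genes, which anchor the filaments to the basement membrane, 4 were marked by H3K27ac, with the highest folds at Itga6 (13.8 and 12.9) and Plec (12.6 and 13.8), and Plec and Dst were also marked by RING1B. Of 13 cornified envelope genes with a peak, 9 were marked by H3K27ac, among them Tchh (14.6 and 14.6), which was also marked by RING1B, and Cst6 (11.1 and 17.2), while H3K27me3 marked Tgm3 and also Ivl, which is among the 9 with H3K27ac folds of 2.34 and 3.20.

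In contrast to the 0 of 51 keratins, RING1B marked 9 of 15 other intermediate filament genes and 9 of 18 regulators of keratin genes, against 12.8% of all symbols. The 9 filament genes were Vim, Prph, Nes, Nefm, Nefh, Ina, Synm, Lmnb1 and Bfsp1, and the nuclear lamins Lmnb1 and Lmna had the highest H3K27ac folds of that list (14.7 and 13.6, and 13.5 and 13.5). RING1B and CBX8 together marked Prph, Nes and Ina, filament genes of neurons and neural progenitors that also carried H3K27me3 (Nes with H3K27ac as well, at 2.70 and 3.67), and of the regulators Tfap2c, Lef1, Hoxc13, Dlx3 and Ovol1. Tfap2c had RING1B folds of 51.5 and 40.9 and CBX8 folds of 45.5 and 90.1. Lef1 and Hoxc13, which act in the hair shaft, had RING1B folds of 23.0 and 22.1 and of 8.10 and 15.3, and H3K27me3 folds of 4.85 and 5.61 and of 5.78 and 7.27. Dlx3 had RING1B folds of 8.32 and 12.7. Of these 5 regulators Ovol1 alone was marked by H3K27ac (12.5 and 14.7), and it had no H3K27me3 peak within 2 kb. The highest H3K27ac folds among the regulators were at Grhl2 (20.2 and 17.9), which was also marked by RING1B, and Klf5 (15.4 and 18.8), which was not. Klf4, Tfap2a and Gata3 carried RING1B and H3K27ac as well.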
